A study of Mus musculus with 17 samples.

Results

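The MAP kinase phosphatase genes Dusp1, Dusp2, Dusp4, Dusp6 and Dusp14 were followed across 17 oligonucleotide arrays of NIH 3T3 cells, an established mouse embryonic fibroblast line. A probe set, the group of short probes that reports on one transcript, was counted for a gene when the platform annotation named that gene and no other. This gave 8 probe sets for 4 of the 5 genes, 4 in each of the 2 tables of values, which name 12394 genes (8-array table) and 8252 genes (9-array table). Dusp1, Dusp2 and Dusp6 had a probe set in both tables and Dusp14 in the 8-array table alone. On GRCm38.p6 the genes lie at chr10:99263231-99267489 (Dusp6), chr17:26505591-26508472 (Dusp1), chr2:127336159-127338377 (Dusp2) and chr11:84048033-84069256 (Dusp14). No probe set was annotated to Dusp4 alone, so Dusp4 was not analysed here. One of the Dusp6 probe sets in the 9-array table was among the dimmest 30% of probe sets and stayed out of the tests. The other 7 were tested.

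The study asked which genes PDGF, a fibroblast mitogen, induces in NIH 3T3 cells through the kinases MEK, Src and PI3K. The 9-array table holds the MEK experiment of 6 arrays: PDGF with UO126, PDGF with PD98059, PDGF, UO126, PD98059 and untreated cells. It also holds a repeat of the Src experiment with 3 arrays, which are PDGF with SU6656, PDGF and vehicle. The 8-array table is the Src experiment: PDGF with SU6656, PDGF with UO126, PDGF with LY294002, PDGF, SU6656, UO126, LY294002 and vehicle. The labels call the cells quiescent in the Src experiment, in its repeat and for the untreated array of the MEK experiment. PDGF was used at 25 ng/ml, for 1 h in the Src experiment and its repeat; its time in the MEK experiment is not given in the sources used here. UO126 (10 µM) and PD98059 (7.5 µM) inhibit MEK, SU6656 (2 µM) inhibits Src family kinases and LY294002 (7.5 µM) inhibits PI3K. Each condition is 1 array per experiment, and the labels do not mention separate cultures. The p-values below therefore reflect only how these arrays vary, and that variation may be technical. The RNA is from whole cultures, in which fewer cells of a type and less RNA per cell cannot be told apart.

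PDGF binding activates its receptor, RAS and then the kinase chain RAF, MEK and ERK. ERK is switched off when a dual-specificity phosphatase removes the phosphates from its threonine and tyrosine, and several of these phosphatases are themselves transcribed in response to ERK signalling, which closes a negative feedback loop. Dusp6 encodes a cytoplasmic phosphatase selective for ERK. Dusp1 encodes a nuclear enzyme, the product of a classical immediate early gene, that acts on p38 and JNK as well as on ERK. Dusp2 and Dusp4 encode inducible nuclear phosphatases. Dusp14 encodes a small atypical member without the MAP kinase docking domain of the others.

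The stretches upstream of Dusp6 and Dusp1 are shown because these are the genes that the MEK inhibitor comparison sets side by side. Both are the 250 bases before the transcript start in RefSeq on GRCm38.p6, chr10:99262981-99263230 on the plus strand for Dusp6 and chr17:26508473-26508722 on the minus strand for Dusp1. They are written 5′ to 3′ in the direction of the gene. Capitals mark matches, on either strand, to the cyclic AMP response element TGACGTCA, to its core TGACG and to the CCAAT box.
Dusp6: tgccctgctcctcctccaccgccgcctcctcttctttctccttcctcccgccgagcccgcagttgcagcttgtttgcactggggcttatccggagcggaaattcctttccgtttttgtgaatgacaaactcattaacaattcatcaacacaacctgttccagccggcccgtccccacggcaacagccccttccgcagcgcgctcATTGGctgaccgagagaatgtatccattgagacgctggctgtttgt
Dusp1: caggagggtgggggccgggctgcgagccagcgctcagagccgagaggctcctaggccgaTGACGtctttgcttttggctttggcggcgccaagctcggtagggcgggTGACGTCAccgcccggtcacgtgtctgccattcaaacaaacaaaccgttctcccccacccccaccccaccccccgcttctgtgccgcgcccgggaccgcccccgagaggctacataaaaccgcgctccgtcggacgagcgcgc
The Dusp1 stretch holds the full element, 143 bases before the start, and 3 matches to TGACG, of which 2 lie inside the full element and the other lies 191 bases before the start. Of 32851 promoters in the table, 1.55% hold TGACGTCA and 17.8% hold TGACG in the same window. The Dusp6 stretch holds neither, and has 1 CCAAT box, as do 33.8% of promoters. Both stretches also matched AAACAA, the core motif of FOXO factors, which is not capitalised here. Dusp1 had 2 matches, 110 and 106 bases before the start, and Dusp6 had 1, 181 bases before it. Of the promoters, 18.3% hold AAACAA. Neither stretch matched the AP-1 motif TGANTCA, the CArG box, the TATA box TATAAA or the letters CCGGAA. These are matches of letters in a short window and describe no binding.

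Values are signal on a linear scale, which had been scaled to the same trimmed mean on every array, and differences are log2 differences after quantile normalisation within a table and addition of a small constant (36.3 signal units in the 8-array table and 21.2 in the 9-array table). The constant makes the change of a dim probe set smaller on this scale than its ratio of signals. Array medians were 133.7 to 198.4. All 12 fibroblast marker genes passed the filter on dim probe sets in both tables, although the Vim probe set of the 9-array table read only 29.9 to 82.5. Of 6 leukocyte marker genes with a probe set, 4 passed the filter in the 8-array table and 3 in the 9-array table. Ptprc, which defines leukocytes, read between 2.4 and 32.8 in the 8-array table and between 3.5 and 10.1 in the 9-array table. Csf1r, the brightest of them, read between 314.3 and 454.7 in the 8-array table and between 71.1 and 226.4 in the 9-array table. The summed leukocyte signal was 905.9 to 974.6 on arrays with PDGF and 1011.6 to 1146.6 on arrays without PDGF in the 8-array table, and 280.5 to 486.6 with PDGF and 334.2 to 465 without PDGF in the 9-array table. Markers of other cell types passed the filter as well. Of 5 epithelial genes, 3 passed in each table. Of 4 endothelial genes, 2 passed in the 8-array table and 1 in the 9-array table. Of 5 muscle and adipocyte genes with a probe set, 2 passed in the 8-array table and 1 in the 9-array table. The epithelial gene Cdh1 read 259.2 to 417.7 in the 9-array table, above every leukocyte marker gene there. The part of these markers in the results was not tested. The ratio of Gapdh signal at its 3′ and 5′ ends, a sign of RNA quality, was 1.13 on the untreated array of the MEK experiment and 0.739 to 0.907 on all other arrays, and the same ratio for actin was 1.67 on the vehicle array of the repeat and 1.17 to 1.47 on all other arrays. Values of the fits without these arrays are given where they move most. The number of arrays is small and limits precision throughout.

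**Figure D1:**
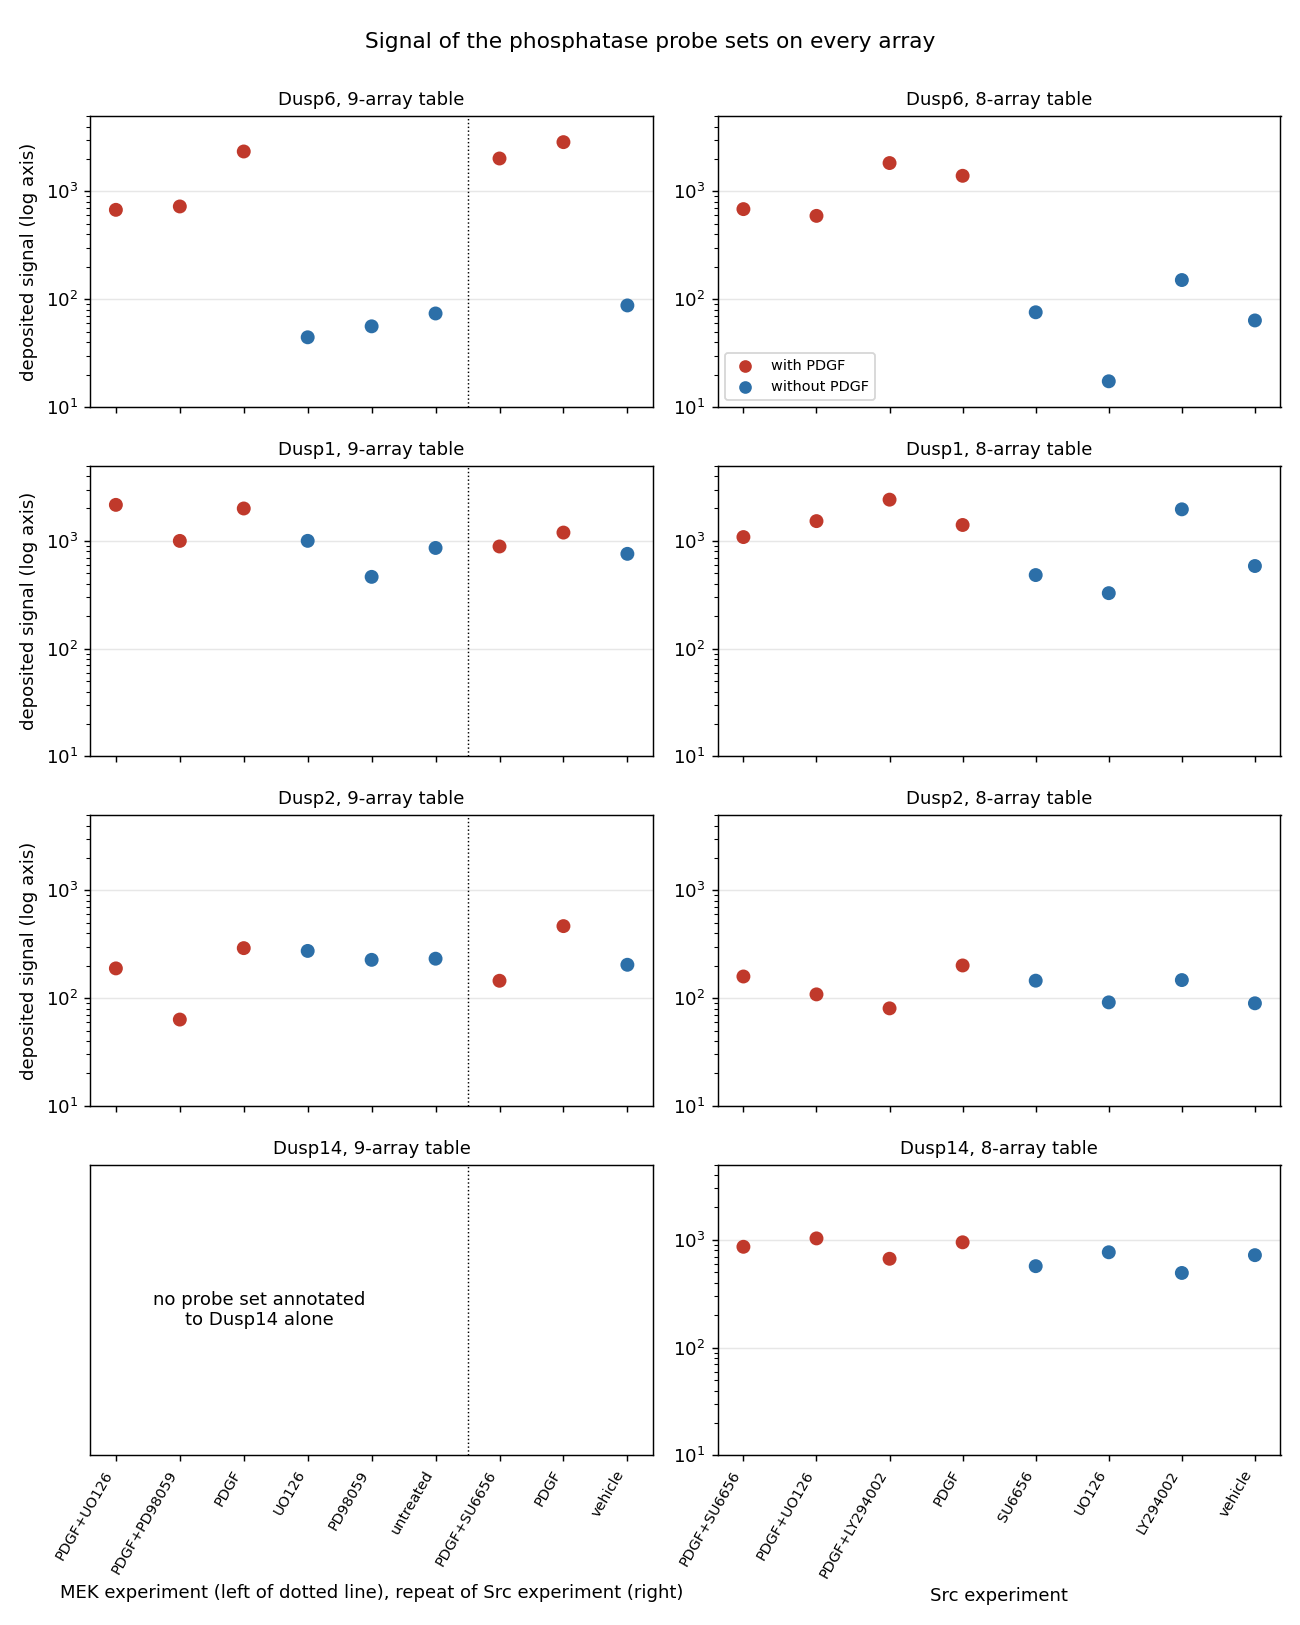
Deposited signal (log axis) of Dusp6, Dusp1, Dusp2 and Dusp14 on every array, 1 point an array, with red for arrays with PDGF and blue for arrays without. Dusp6 lay at 593.4 or more on all arrays with PDGF and at 150.6 or less on all arrays without it, whereas the points of Dusp1, Dusp2 and Dusp14 overlap.

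PDGF raised Dusp6 in every pair of arrays and by more than any other of the phosphatases. In the MEK experiment the Dusp6 probe set (93285_at) read 675.1 with PDGF and UO126, 725.5 with PDGF and PD98059 and 2348.9 with PDGF alone, against 44.3 with UO126, 56 with PD98059 and 73.7 in untreated cells. In the repeat it read 2022.3 with PDGF and SU6656 and 2868 with PDGF, against 87.5 with vehicle. In the Src experiment (1415834_at) it read 685.5 with PDGF and SU6656, 593.4 with PDGF and UO126, 1834.6 with PDGF and LY294002 and 1397.1 with PDGF, against 75.6 with SU6656, 17.3 with UO126, 150.6 with LY294002 and 63.5 with vehicle. Arrays with and without PDGF did not overlap in any experiment, and the lowest reading with PDGF came from a MEK inhibitor array in both the MEK and the Src experiment.

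Without an inhibitor the signal of Dusp6 was 31.9-fold higher with PDGF than untreated in the MEK experiment, 32.8-fold higher than vehicle in the repeat and 22-fold higher than vehicle in the Src experiment. Over 4 pairs per table the log2 response was 4.03 ± 0.81 (SD) in the 9-array table and 3.40 ± 0.48 in the 8-array table. Pairs of a table differ in inhibitor, so here and below this SD is not a spread of replicates. A linear model with the pair as a block (limma, Benjamini-Hochberg over all probe sets, threshold 0.05) gave 4.03 (SE 0.26, adjusted p = 1.01e-05) and 3.40 (SE 0.18, adjusted p = 8.66e-06). The 9-array response was 3.82 without the untreated array of the MEK experiment and 3.77 without the vehicle array of the repeat. By the size of the change this probe set ranked 2 among the 8695 tested in the 9-array table and 15 among the 15838 tested in the 8-array table. The second Dusp6 probe set of the 9-array table (161536_r_at) did not follow this pattern. Its signal was 3.1 to 24.4 on arrays with PDGF, against 3.5 to 32.7 on arrays without PDGF, and its difference over 4 pairs was 0.04 (SE 0.21).

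The response of Dusp1 was smaller. In the MEK experiment it (104598_at) read 2161.3 with PDGF and UO126, 1000.4 with PDGF and PD98059 and 2000.1 with PDGF, against 1001.6 with UO126, 464 with PD98059 and 860.4 in untreated cells. In the repeat it read 888.2 with PDGF and SU6656 and 1195.4 with PDGF, against 758.8 with vehicle. In the Src experiment (1448830_at) it read 1086.1 with PDGF and SU6656, 1527.1 with PDGF and UO126, 2415.5 with PDGF and LY294002 and 1406 with PDGF, against 482.2 with SU6656, 327.6 with UO126, 1964.7 with LY294002 and 585 with vehicle. PDGF arrays were the higher of their pair in 8 of 8 pairs, but arrays with and without PDGF overlapped in the MEK and Src experiments, and the array with LY294002 alone exceeded 3 of the 4 PDGF arrays of its experiment.

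The inhibitor-free response of Dusp1 was 2.32-fold in the MEK experiment, 1.58-fold in the repeat and 2.4-fold in the Src experiment. Over the pairs its log2 response was 1.00 ± 0.22 (SD, 4 pairs) in the 9-array table, where limma gave an SE of 0.12 and an adjusted p = 0.00102. In the 8-array table it was 1.18 ± 0.76 (SD, 4 pairs), with an SE of 0.23 and an adjusted p = 0.0219. The pairs of the 8-array table spread from 0.25 with LY294002 to 2.10 with UO126. That call was lost without either array of the vehicle pair or of the SU6656 pair, where limma's adjusted p was 0.0785 to 0.0989, and with no filter (0.0792) or no variance trend (0.169). Without the pair as a block the call was lost in both tables, at limma adjusted p = 0.337 and 0.273. Without the untreated array of the MEK experiment the 9-array response was 0.94 and without the vehicle array of the repeat 1.11, both past the threshold.

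Dusp14 had the smallest and most even response of the genes that passed. Its probe set (1431422_a_at) read 863.1 with PDGF and SU6656, 1032.3 with PDGF and UO126, 668 with PDGF and LY294002 and 949.7 with PDGF, against 570.4 with SU6656, 767.5 with UO126, 493.3 with LY294002 and 721.7 with vehicle. The PDGF array was higher in 4 of 4 pairs, by 1.32-fold to 1.51-fold, and the PDGF array with LY294002 lay below 2 of the arrays without PDGF. The log2 response was 0.44 ± 0.09 (SD, 4 pairs; limma SE 0.09, adjusted p = 0.0263). The call was lost without any 1 of the 8 arrays (limma adjusted p = 0.0626 to 0.121, differences of 0.40 to 0.46), with no variance trend (0.115) and without the pair as a block (0.29).

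Dusp2 did not pass in either table. The mean signal of its probe set was 127.8 in the 8-array table, below the median of every array there, and 232.5 in the 9-array table, above them. In the MEK experiment it (92758_at) read 188.9 with PDGF and UO126, 63.3 with PDGF and PD98059 and 291.3 with PDGF, against 274.4 with UO126, 226.8 with PD98059 and 232.4 in untreated cells. In the repeat it read 145 with PDGF and SU6656 and 466.3 with PDGF, against 204.1 with vehicle. In the Src experiment (1450698_at) it read 158.9 with PDGF and SU6656, 108.4 with PDGF and UO126, 80.4 with PDGF and LY294002 and 201.1 with PDGF, against 145.3 with SU6656, 91.4 with UO126, 147.2 with LY294002 and 89.6 with vehicle. PDGF without an inhibitor gave the highest reading of each experiment, 1.25-fold, 2.28-fold and 2.24-fold over its own control in the MEK experiment, the repeat and the Src experiment. With PDGF and an inhibitor the reading was below that of PDGF alone in 6 of 6 cases. Averaged over the pairs, the log2 difference was −0.14 ± 1.15 (SD, 4 pairs; limma SE 0.35, adjusted p = 0.911) in the 9-array table and 0.24 ± 0.65 (SE 0.26, adjusted p = 0.713) in the 8-array table. The pairs differ in inhibitor, so these means and SDs also hold any effect of the inhibitors. In the 9-array table the response was 0.27 and 1.18 without an inhibitor, −0.45 with UO126 and −1.54 with PD98059. In the 8-array table it was 0.95 without an inhibitor, 0.21 with SU6656, 0.43 with UO126 and −0.62 with LY294002. The 9-array value over the pairs was −0.57 without the vehicle array of the repeat and −0.27 without the untreated array of the MEK experiment.

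In all, 2 of the 3 genes tested in the 9-array table rose with PDGF, where 1.46% of all probe sets did, and 3 of the 4 genes tested in the 8-array table rose, where 2.51% of all probe sets did. The share of probe sets that fell was 0.265% and 0.808%, and 0 of these genes fell. In either direction 1.73% of probe sets passed in the 9-array table and 3.31% in the 8-array table.

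**Figure D2:**
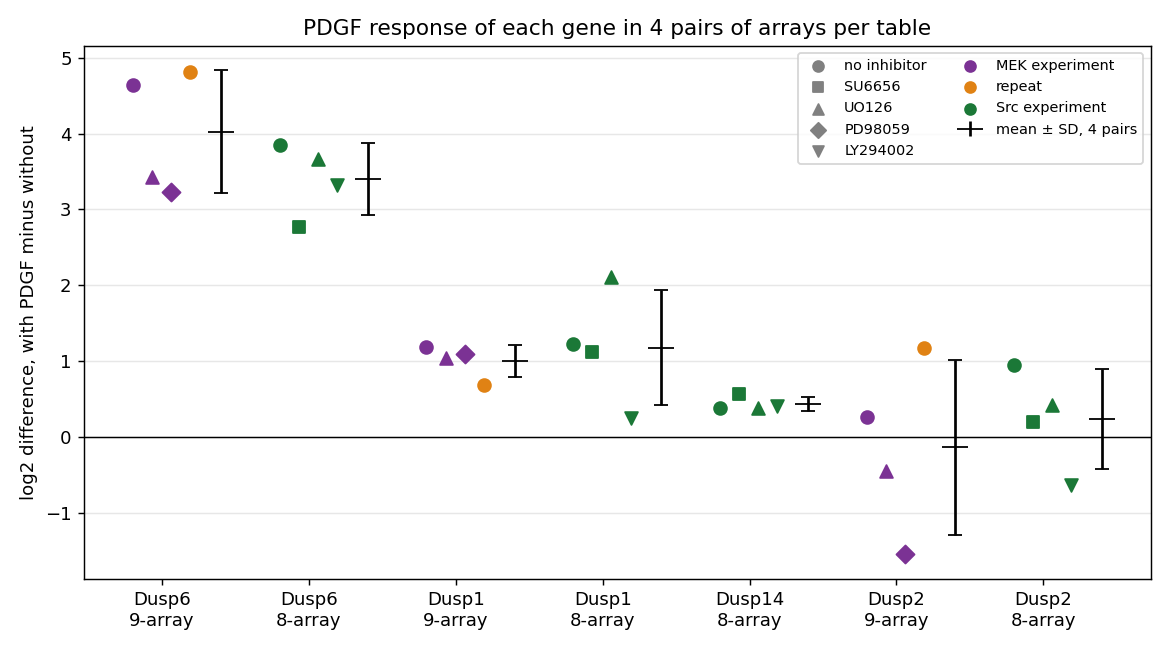
Difference in log2 signal (with PDGF minus without) for each gene in the 4 pairs of arrays of each table, with the shape giving the inhibitor present on both arrays, the colour the experiment, and the bar the mean ± SD of the 4 pairs. All points of Dusp6 lie between 2.76 and 4.81, those of Dusp1 between 0.25 and 2.10, those of Dusp14 between 0.38 and 0.57, and those of Dusp2 on both sides of 0.

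The MEK inhibitors were compared with PDGF alone to ask how far each phosphatase gene depends on MEK. Under PDGF, Dusp6 was lower with each MEK inhibitor, while Dusp1 was lower with PD98059 only. The log2 change of Dusp6 was −1.76 with UO126 and −1.66 with PD98059 in the MEK experiment, and −1.16 with UO126 in the Src experiment. The changes of Dusp1 in the same array pairs were 0.07, −0.98 and 0.09. As a ratio of signals in the MEK experiment, PDGF with UO126 over PDGF alone was 0.287 for Dusp6 and 1.08 for Dusp1, and PDGF with PD98059 over PDGF alone was 0.309 for Dusp6 and 0.5002 for Dusp1. At least 2-fold falls made up 2.39% of all probe sets with UO126 and 2.4% with PD98059 in the MEK experiment, and 1.81% with UO126 in the Src experiment. UO126 was at 10 µM and PD98059 at 7.5 µM, so the inhibitors are given side by side only.

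The change of Dusp6 minus that of Dusp1 was −1.84, −0.68 and −1.25 in these 3 contrasts, with a mean of −1.26 ± 0.58 (SD, n = 3). The sign was the same in 3 of 3 contrasts, 2 of which share a PDGF array, and this difference between genes was not tested. Without PDGF the changes of Dusp6 were −0.56 with UO126 and −0.26 with PD98059 in the MEK experiment and −0.98 with UO126 in the Src experiment. Those of Dusp1 were 0.22, −0.89 and −0.78. The change of Dusp6 minus that of Dusp1 was then −0.78, 0.64 and −0.20, with a mean of −0.12 ± 0.71 (SD, n = 3), smaller than its own spread. Dusp6 was dim on all these arrays, at 73.7 signal units or less, where the added constant weighs most.

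Dusp6 was still higher with PDGF than without it under each MEK inhibitor. The rise of its signal over the matched array without PDGF was 630.8 units with UO126 and 669.5 with PD98059 in the MEK experiment, against 2275.2 without an inhibitor, which is 27.7% and 29.4%. In the Src experiment it was 576.1 units with UO126, against 1333.6 without, or 43.2%. Dusp1 rose by 1159.7 units with UO126 and 536.4 with PD98059, against 1139.7 without an inhibitor, and by 1199.5 with UO126 in the Src experiment, against 821 without. On the log2 scale its response in the MEK experiment was 1.04 with UO126 and 1.10 with PD98059, against 1.19 without an inhibitor. In the Src experiment the log2 response of Dusp1 was 2.10 with UO126, against 1.23 without. The log2 response of Dusp6 was 3.43 with UO126 and 3.23 with PD98059 in the MEK experiment, against 4.63 without an inhibitor, and 3.67 with UO126 in the Src experiment, against 3.84 without. In the Src experiment the signal with UO126 alone, 17.3, was under the added constant, and the ratio of signals was 34.3 with UO126, against 22 without, so whether the response there was smaller depends on the scale. These values come from single arrays. In the MEK experiment, those without an inhibitor and the percentages based on them cannot be had without the untreated array.

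With UO126 and PD98059 as 2 arrays of MEK inhibition, limma gave Dusp6 a change under PDGF of −1.76 (SE 0.22, adjusted p = 0.0593), the smallest p of all probe sets but not past the threshold. No probe set passed (0%), while 629 had an unadjusted p under 0.05. On the deposited values without quantile normalisation Dusp6 passed (−1.74, limma adjusted p = 0.0391), and over all alternatives its adjusted p was 0.0391 to 0.324. Without the untreated array it was −1.71. Dusp2 had −1.42 (SE 0.45, adjusted p = 0.499), which was −2.12 without the array with PDGF and UO126 and −0.72 without that with PDGF and PD98059, and Dusp1 −0.33 (SE 0.42, adjusted p = 0.912). Without PDGF the changes were −0.37 (SE 0.22) for Dusp6, 0.31 (SE 0.45) for Dusp2 and −0.46 (SE 0.42) for Dusp1, with limma adjusted p from 0.781 to 0.949, and 0.0115% of probe sets passed in either direction. Without the untreated array the changes without PDGF were −0.24 for Dusp6, 0.99 for Dusp2 and −0.83 for Dusp1. Dusp2 had 0.08 in this fit without the vehicle array of the repeat. The interaction, the change in PDGF response with MEK inhibition, was −1.39 (SE 0.28, limma adjusted p = 0.407) for Dusp6, −1.72 (SE 0.57, 0.906) for Dusp2 and 0.13 (SE 0.54, 0.999) for Dusp1. Without the untreated array it was −1.48 for Dusp6, −2.18 for Dusp2 and 0.38 for Dusp1, and for Dusp2 it ran between −2.42 and −1.02 with 1 array left out. For Dusp1 it was −0.12 without the vehicle array of the repeat. No probe set passed that test either (0%), and 423 had an unadjusted p under 0.05. UO126 and PD98059 gave different values for Dusp1, and its errors in this fit were wider than those of Dusp6.

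**Figure D3:**
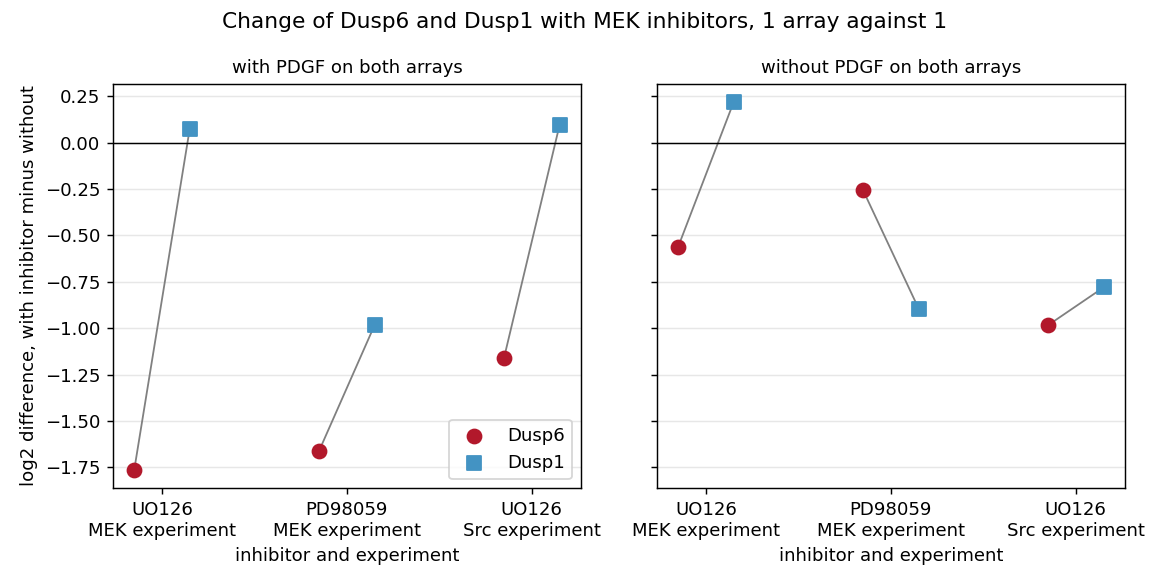
Difference in log2 signal (with inhibitor minus without) of Dusp6 (circles) and Dusp1 (squares) in 3 single-array contrasts, with PDGF on both arrays at the left and without PDGF at the right; grey lines join both genes of a contrast. With PDGF Dusp6 lies below Dusp1 in each contrast, by 0.68 to 1.84, and without PDGF the order differs between contrasts.

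The Src experiment set SU6656, UO126 and LY294002 against vehicle. SU6656 went with lower Dusp6 under PDGF but not without it. Its log2 change of Dusp6 was −0.98 with PDGF and 0.10 without in the Src experiment, and −0.53 with PDGF in the repeat. In the Src experiment the rise of the Dusp6 signal over the matched array without PDGF was 609.9 units with SU6656, against 1333.6 without an inhibitor, or 45.7%. The values for Dusp1 were −0.36 with PDGF and −0.25 without, and −0.46 with PDGF in the repeat. Those for Dusp2 were −0.27 with PDGF, 0.47 without and −1.57 with PDGF in the repeat, and those for Dusp14 −0.13 with PDGF and −0.32 without. Averaged over arrays with and without PDGF, limma gave −0.44 (SE 0.25, adjusted p = 0.712) for Dusp6, −0.31 (SE 0.32, 0.871) for Dusp1, −0.22 (SE 0.12, 0.699) for Dusp14 and 0.10 (SE 0.37, 0.97) for Dusp2. None passed, and 0.107% of all probe sets did. The value for Dusp6 was −0.01 without the array with PDGF and SU6656 and −0.86 without the array with SU6656 alone.

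UO126 in the same fit gave −1.07 (SE 0.25, limma adjusted p = 0.302) for Dusp6, −0.34 (SE 0.32, 0.801) for Dusp1, 0.11 (SE 0.12, 0.856) for Dusp14 and −0.37 (SE 0.37, 0.818) for Dusp2, again with none past the threshold (0.0442% of all probe sets passed). In single contrasts with UO126, Dusp14 differed by 0.10 with PDGF and 0.11 without, and Dusp2 by −0.63 with PDGF and −0.11 without.

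LY294002 went with a high level of Dusp1 before any PDGF. The array with LY294002 alone read 1964.7, 3.36-fold over the 585 of vehicle, a log2 change of 1.74, and 1.33% of all probe sets were at least 2-fold up in that contrast. With PDGF the change was 0.77, and PDGF added 0.25 to the level with LY294002. Dusp6 also read higher with LY294002, by 0.39 with PDGF and 0.90 without. Dusp14 was lower on both LY294002 arrays, by 0.49 with PDGF and 0.51 without. Dusp2 differed by −1.03 with PDGF and 0.55 without. limma gave 1.25 (SE 0.32, adjusted p = 0.131) for Dusp1, 0.64 (SE 0.25, 0.313) for Dusp6, −0.50 (SE 0.12, 0.122) for Dusp14 and −0.24 (SE 0.37, 0.842) for Dusp2. None passed, and 0.511% of all probe sets did. The value for Dusp1 passed without either array of the UO126 pair (limma adjusted p = 0.045 and 0.0476), was 0.64 without the array with LY294002 alone and 1.87 without the array with PDGF and LY294002.

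**Figure D4:**
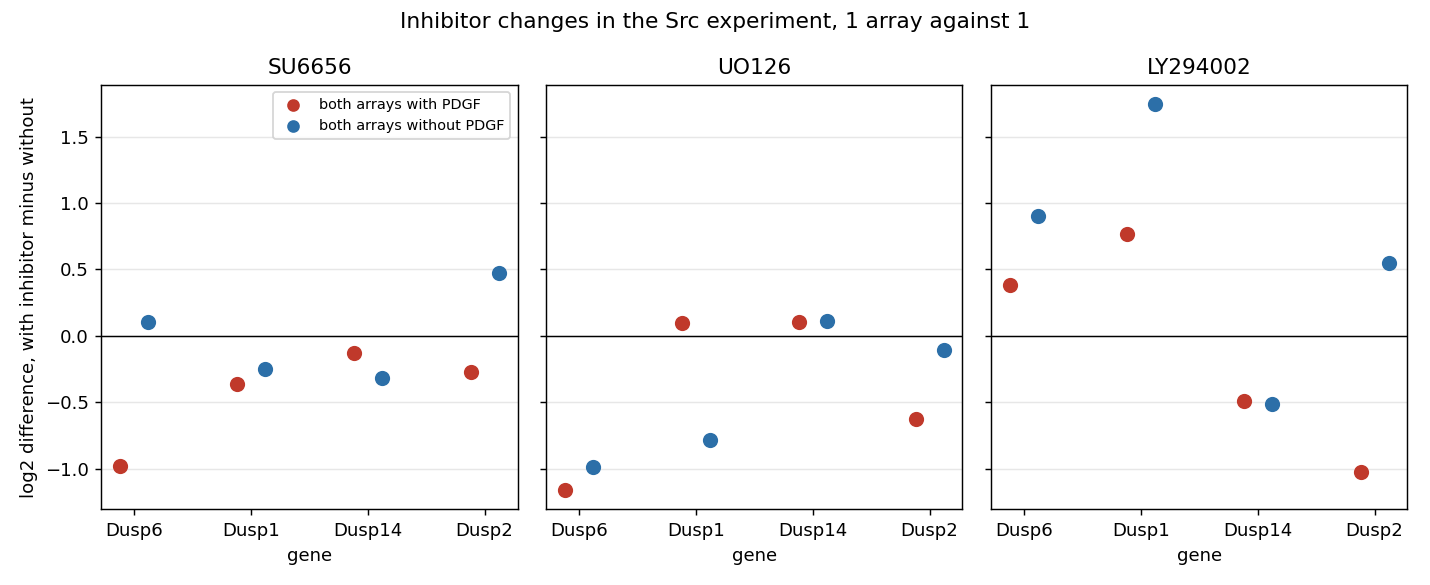
Difference in log2 signal (with inhibitor minus without) for the phosphatase genes in the Src experiment, 1 array against 1, with red where both arrays had PDGF and blue where neither had. Dusp6 lies at −1.16 and −0.98 with UO126, and Dusp1 at 0.77 and 1.74 with LY294002.

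The other genes of the pathway were read from lists chosen with earlier results of these data known. Of other MAP kinase and dual-specificity phosphatases, 1 of 10 measured in the 9-array table rose with PDGF and 0 fell, with a median log2 of 0.12, against −0.03 over all probe sets. It was Dusp8, a phosphatase of JNK and p38 (1.09, SE 0.22, limma adjusted p = 0.0411), and its call was lost without any 1 of the 8 arrays (0.0652 to 0.203). Of 12 measured in the 8-array table none passed, with a median of 0.09. Dusp8 had 0.69 (SE 0.18, limma adjusted p = 0.0781) and Dusp10, another phosphatase of JNK and p38, 0.60 (SE 0.14, 0.0586). Dusp7, an ERK phosphatase of the same subfamily as Dusp6, had −0.11 (SE 0.12, 0.721).

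Few of the receptor and kinase genes passed. From the PDGF receptor to ERK, 0 of 15 measured genes rose and 1 fell in the 9-array table (median 0.11), and 0 of 17 passed in the 8-array table (median −0.06). The one that fell was Pdgfra, a PDGF receptor (−0.65, SE 0.12, limma adjusted p = 0.0187), a call lost without any 1 array (0.0656 to 0.117). With LY294002, Mknk2, a kinase downstream of ERK and p38, rose by 0.81 (SE 0.14, limma adjusted p = 0.05 after rounding, just past the threshold), a call lost without 6 of the 8 arrays taken singly. In the JNK and p38 cascade 1 of 11 rose in each table, with medians of −0.04 in the 9-array table and 0.02 in the 8-array table. In both it was Map2k3, an activating kinase of p38, at 0.62 (SE 0.13, limma adjusted p = 0.0446) and 0.81 (SE 0.10, 0.00136). The 9-array call was lost without any 1 of the 8 arrays (0.09 to 0.106) and the 8-array call with no variance trend (limma adjusted p = 0.0608).

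Among other feedback inhibitors and ERK output transcripts, several rose, where 1.46% of all probe sets did in the 9-array table and 2.51% in the 8-array table. Of the inhibitors of receptor and RAS signalling, 1 of 4 rose in the 9-array table (median 0.23) and 3 of 9 in the 8-array table (median 0.29). Errfi1, an inhibitor of EGF receptor signalling, rose in both, by 3.86 (SE 0.23) and 4.57 (SE 0.15), and in the 8-array table so did Spry2 (2.53, SE 0.17) and Spred1 (0.88, SE 0.20, limma adjusted p = 0.0469), inhibitors of RAS to ERK signalling. The call of Spred1 was lost without 6 of the 8 arrays taken singly and under the 5 other settings tried (limma adjusted p = 0.0517 to 0.211). Of the ERK output transcripts, 10 of 13 rose in the 9-array table (median 2.85) and 11 of 14 in the 8-array table (median 2.25). Those that rose in both were Egr1, Egr2, Fos, Fosl1, Ier2, Ier3, Junb, Myc, Phlda1 and Epha2, and Egr3 rose in the 8-array table. The rise of Egr1, which encodes an immediate early zinc finger protein, was 3.25 (SE 0.11) in the 9-array and 3.31 (SE 0.29) in the 8-array table. That of Fos, a subunit of AP-1, was 3.36 (SE 0.33) in the 9-array and 2.60 (SE 0.27) in the 8-array table. The 9-array calls of Myc (1.59, SE 0.26) and Epha2 (1.67, SE 0.24) were lost without 4 and 1 of the 8 arrays taken singly and without the pair as a block (limma adjusted p = 0.144 and 0.556). That of Myc was also lost with no filter (0.0575) and no variance trend (0.139), and the 8-array call of Egr3 with no variance trend (0.0574).

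Under PDGF, the ERK output transcripts had a median change of −0.41 with UO126 and −0.37 with PD98059 in the MEK experiment and −0.30 with UO126 in the Src experiment, beside the −1.76, −1.66 and −1.16 of Dusp6. These medians include genes that did not pass for PDGF, such as Ccnd1 (PDGF effect 0.05 in the 9-array and 0.11 in the 8-array table). They are therefore not a like comparison with Dusp6, which PDGF raised strongly. At least 2-fold falls numbered 2 of 13, 3 of 13 and 1 of 14, where 2.39%, 2.4% and 1.81% of all probe sets fell as far. The feedback inhibitors had medians of −0.44, −0.37 and −0.14, with 1 of 4, 1 of 4 and 1 of 9 at least 2-fold down. In the fit of MEK inhibition under PDGF, 0 of 13 ERK output transcripts and 0 of 4 feedback inhibitors passed, but some had values near the −1.76 of Dusp6. Errfi1 had −1.47 (SE 0.21, limma adjusted p = 0.0642), Phlda1 −1.41 (SE 0.28, 0.222) and Fosl1 −1.24 (SE 0.30, 0.363). The other phosphatases had medians of −0.02, −0.14 and 0.16 in the same contrasts, with 0 at least 2-fold down.

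**Figure D5:**
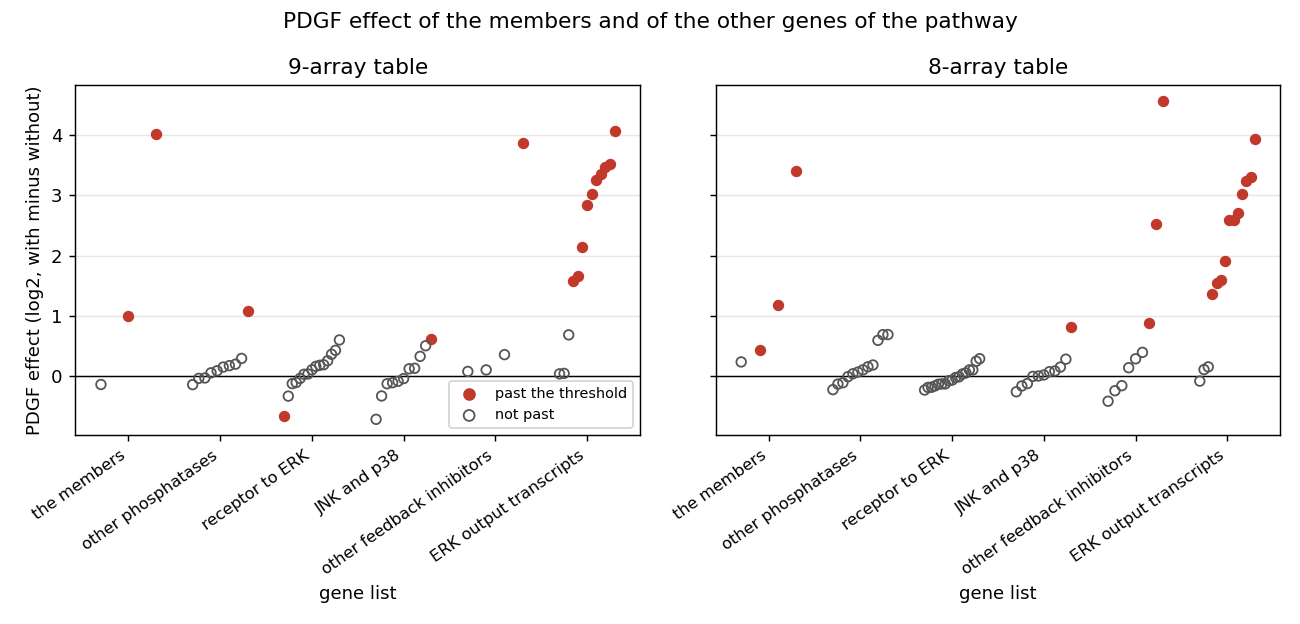
PDGF effect (log2, with PDGF minus without) per gene at its brightest probe set, for the phosphatases described here and for the lists of pathway genes, with filled red points for genes past the limma threshold. The ERK output transcripts and a few feedback inhibitors, together with Dusp6, make up the points above 2.

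Across arrays Dusp6 and Dusp1 moved together more closely than either did with Dusp2. Dusp14, measured in the 8-array table alone, was not correlated with the others. Pearson's r between Dusp6 and Dusp1 was 0.81 over the 8 arrays of the 8-array table and 0.72 over the 9 arrays of the 9-array table, centred on each experiment. Between Dusp2 and Dusp6 it was 0.39 and −0.03, and between Dusp1 and Dusp2 0.30 and 0.22. These are descriptions over arrays that share treatments. Among 5536 other genes measured in both tables, those most like Dusp6, by the smaller r of the 2 tables, were Nppb (0.99), which encodes a natriuretic peptide, Sgk1 (0.98), a serum-inducible kinase, and Egr2 (0.98), a zinc finger factor. Those most like Dusp1 were Actn4 (0.93) and Actn1 (0.84), which encode actin-binding alpha-actinins, and Emc6 (0.84), a subunit of a membrane protein insertase. Those most like Dusp2 were Prkd2 (0.72), Cpsf2 (0.69) and Arhgap35 (0.67), lower than for the others.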

How the data were processed

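Expression was measured on arrays of 2 designs. The files deposited by the authors hold linear intensity, 1 number per probe set and array. The values show that every array had been scaled to a mean of 500.2 to 500.4 after trimming 2% at each end. Neither the software nor a genome build is named (not given in the sources used here). Of the probe sets, 20393 of 22690 (8-array table) and 10855 of 12488 (9-array table) had 1 gene symbol, 691 and 396 several, and 1606 and 1237 none listed; 20364 and 10839 symbols were updated through Entrez IDs. Promoters were taken from RefSeq, with an entry for 4 of the 5 genes.

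Control probe sets (64 and 66) were left out, values were quantile normalised within each table, the table's 20th percentile was added before taking log2, and the dimmest 30% by mean were dropped, leaving 15838 and 8695. For testing, limma 3.58.1 under R 4.3.3 was used (lmFit, eBayes with trend, Benjamini-Hochberg over all probe sets kept). The PDGF fits used pairs of arrays of the same experiment and inhibitor as a block, a pairing that comes from the design. The fit for MEK inhibition had terms for experiment, PDGF, SU6656 and the interaction. The repeat arrays share its PDGF term, so its estimates can differ clearly from plain differences of arrays. For Dusp2 without PDGF it gave 0.31, where the mean log2 was 8.11 with MEK inhibition and 8.02 untreated. For Fos under PDGF it gave −0.02, where the mean log2 was 9.93 with MEK inhibition and 10.44 with PDGF alone. The residual, with 3 degrees of freedom, holds any interaction without a term and is not a spread of replicates. A gene is represented by its probe set with the highest mean. The code was tested on simulated data. The genes and lists were chosen with earlier results of these data known. Named were all member probe sets, list genes past the threshold, and the 3 genes most like each member measured in both tables; Dusp10 and Dusp7, and Dusp8 in the 8-array table, were named after their values were seen. The tables were never tested together.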

Additional observations from a re-analysis of the deposited data

Results flagged for a closer look

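In the cases below, 2 inhibitors of 1 experiment moved a phosphatase gene in opposite directions both with and without PDGF. How often this happens over all probe sets was not counted, so the cases are descriptions only. Some of the changes were small, such as 0.07 for Dusp1 with UO126 under PDGF in the MEK experiment. Both inhibitors of a pair share the same arrays without inhibitor, doses differ, and none of these differences was tested. Their causes were not tested either.

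Dusp1 was lower with SU6656 (−0.31, the mean of both log2 differences) and higher with LY294002 (1.25) in the Src experiment, and the value with SU6656 minus that with LY294002 was −1.56. In the MEK experiment Dusp1 was 0.15 with UO126 and −0.94 with PD98059, a difference of 1.09 between these MEK inhibitors. Its values without PDGF rest on the untreated array, whose Gapdh ratio was 1.13. The direction with UO126 was not the same in the Src experiment, where Dusp1 changed by −0.78 without PDGF and 0.09 with PDGF. Dusp6 was −1.07 with UO126 and 0.64 with LY294002, a difference of −1.72. Dusp14 was −0.22 with SU6656, 0.11 with UO126 and −0.50 with LY294002. The value with SU6656 minus that with UO126 was −0.33, and that with UO126 minus that with LY294002 was 0.61.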

How the results depend on the processing

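The PDGF call of Dusp6 held under all 13 alternatives in each table (log2 values between 3.77 and 4.31 for 9 arrays and between 3.25 and 3.95 for 8 arrays), and that of Dusp1 under 12 of 13 in the 9-array table. Counts of probe sets past the threshold moved more, and the cause was not tested. For PDGF they were 525 and 150 in the 8-array and 9-array tables, 175 and 63 with no variance trend, 241 and 60 with no replicate block, and 261 to 385 and 101 to 115 with 1 array left out. The count of 17 for SU6656 was 11 with no filter, 0 with no trend and 0 to 19 with 1 array left out. The count of 7 for UO126 was 0 with no filter and with no trend, and 0 to 8 with 1 array left out. The count of 81 for LY294002 was 45 with no filter, 0 with no trend and 4 to 107 with 1 array left out. MEK inhibition under PDGF had 0, with 1 on deposited values without quantile normalisation, 1 with the constant at the 5th percentile and 0 to 3 with 1 array left out. Without PDGF it had 1, with 0 for no filter and for no trend, and 0 to 2 with 1 array left out, and the interaction had 0, with 0 to 1.

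Values that were not called and changed sign when 1 array was left out were those of Dusp2 with PDGF in the 9-array table (−0.57 to 0.33), with SU6656 (−0.37 to 0.57), with UO126 (−0.84 to 0.11) and with LY294002 (−0.82 to 0.33), and those of Dusp1 with UO126 in the 8-array table (−0.96 to 0.28) and with MEK inhibition under PDGF (−0.86 to 0.20), without PDGF (−1.02 to 0.10) and in the interaction (−0.43 to 0.69). The change of Dusp6 minus that of Dusp1 under PDGF was −1.55 to −0.97 with 1 contrast left out and −0.80 at its weakest, with all probe sets averaged. Without PDGF it was −0.49 to 0.22, and 0.22 without the UO126 contrast of the MEK experiment. The 9-array PDGF effect of Dusp1 lost its call without the block alone.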
